A study of Mus musculus with 4 samples.

Results

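The cells described here were neutrophils of the inflamed mouse colon that carried many transcripts of Ngp, Ltf and Camp, genes for proteins stored in the specific (secondary) granules. They were chosen on measured values. A droplet counted as a kept cell with at least 200 detected genes and under 20% of its UMIs (unique molecular identifiers, each standing for 1 captured transcript) from mitochondrial genes. A kept cell was a member when S100a8 and S100a9 made up at least 1% of its UMIs, when Ngp, Ltf and Camp together had at least 5 UMIs, and when 6 lineage genes (Cd3e, Cd3d, Cd3g, Cd79a, C1qa and Fcgr1) had none. This gave 2242 cells of 43432 kept and 45229 deposited cells, with 533 in sample 1, 107 in sample 2, 825 in sample 3 and 777 in sample 4. They are called granule-rich neutrophils below. The values of these genes, and of every gene in the same cells, are therefore a description, and no test was run.

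The study profiled CD45+ leukocytes of the colonic lamina propria by droplet single-cell RNA sequencing (10x Genomics) in acute colitis. For 7 days, mice on a C57BL/6 background drank water with 2% dextran sulfate sodium (DSS), a polymer toxic to gut epithelium, and colons taken on day 8 from 3 mice of a group were mixed into each sample before selection on anti-CD45 magnetic beads. The series covered wild-type mice and AhR-null mice (germline loss of the aryl hydrocarbon receptor, a ligand-activated transcription factor), but the labels used here give no genotype for any sample. The age is 10 weeks in the labels and 8 weeks in the study's description of this experiment. All 4 samples had received DSS, so there was no untreated colon to compare with, no genotype comparison was made, and each value is given by sample. With 3 mice mixed, the spread between mice cannot be seen. The 4 samples held 10986, 13223, 11164 and 8059 kept cells, and their deposited UMIs totalled 113806334, 135516016, 101579112 and 72509408.

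Neutrophils load their granules in the bone marrow in waves. Primary granule proteins such as myeloperoxidase and elastase are transcribed by dividing promyelocytes, specific granule proteins by myelocytes and metamyelocytes under the transcription factor C/EBP epsilon, and gelatinase granule proteins by band cells. Mature neutrophils in blood and tissue carry the proteins but have largely stopped making the transcripts, and in the inflamed gut they respond through chemoattractant receptors and release cytokines and chemokines. Specific granule transcripts in a tissue neutrophil are thus commonly read as a mark of a young cell.

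The 3 genes of the rule and Lcn2, a further specific granule gene, lie on chromosomes 9 and 2 (GRCm38). Ngp (neutrophilic granule protein, a cathelicidin-related protein) spans chr9:110419747-110423012 on the plus strand, Ltf (lactoferrin, an iron-binding protein) chr9:111019271-111042767 on the plus strand, and Camp (cathelicidin antimicrobial peptide) chr9:109847379-109849617 on the minus strand. Lcn2 (lipocalin 2, which binds bacterial siderophores) spans chr2:32384633-32388252 on the minus strand. Their 250 bases before the RefSeq start (GRCm38.p6) are shown because these are the genes that set the cells apart. Capitals mark matches on either strand to TTGCNNAA, a form of the C/EBP motif. The windows are chr9:110419558-110419807 for Ngp, chr9:111019042-111019291 for Ltf, chr9:109849457-109849706 for Camp and chr2:32387740-32387989 for Lcn2, each read along the gene's own strand. The gene spans are those of GENCODE and the starts those of RefSeq, which lie further into the genes, so the windows overlap the spans.
Ngp: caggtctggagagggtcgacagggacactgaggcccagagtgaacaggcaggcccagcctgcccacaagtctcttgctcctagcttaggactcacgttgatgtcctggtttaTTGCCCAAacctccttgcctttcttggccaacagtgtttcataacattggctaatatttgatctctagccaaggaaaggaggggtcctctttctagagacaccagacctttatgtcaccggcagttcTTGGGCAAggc
Ltf: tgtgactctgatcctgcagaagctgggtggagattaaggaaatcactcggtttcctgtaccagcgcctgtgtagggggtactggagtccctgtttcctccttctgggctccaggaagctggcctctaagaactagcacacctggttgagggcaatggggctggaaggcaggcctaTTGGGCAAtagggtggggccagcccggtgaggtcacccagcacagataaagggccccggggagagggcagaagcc
Camp: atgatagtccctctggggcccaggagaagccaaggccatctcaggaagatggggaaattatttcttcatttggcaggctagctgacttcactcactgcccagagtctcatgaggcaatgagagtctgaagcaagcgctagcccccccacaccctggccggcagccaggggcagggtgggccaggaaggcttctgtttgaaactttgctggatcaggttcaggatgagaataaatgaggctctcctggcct
Lcn2: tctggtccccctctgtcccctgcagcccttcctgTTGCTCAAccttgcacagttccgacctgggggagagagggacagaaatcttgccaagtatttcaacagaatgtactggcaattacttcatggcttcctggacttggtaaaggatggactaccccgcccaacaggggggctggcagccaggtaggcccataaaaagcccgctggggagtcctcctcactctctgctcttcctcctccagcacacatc
Ngp had 2 matches, 138 and 11 bases before the start, Ltf had 1 at 75 bases and Lcn2 had 1 at 216 bases. Read along the motif, the letters were TTGCCCAA in Ngp and Ltf and TTGCTCAA in Lcn2, and these letters were not in the Camp window. The PU.1 motif AGGAAGT, searched on both strands, was in none of the 4 windows. Among 32851 promoter windows of this length, 9.56% held TTGCNNAA and 7.69% held AGGAAGT. These matches describe letters in a window and say nothing of binding in these cells.

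B cells, which do not make these transcripts, were used to gauge the free RNA that droplets take up. They were gated to S100 genes under 1% of UMIs, which can leave out droplets that took up much neutrophil RNA. The B cell values are thus those of this gate and can understate free RNA. Of B cells, 94.0%, 97.8%, 93.5% and 91.8% in samples 1 to 4 had no UMI of Ngp, Ltf or Camp, and a single one of the 6462 B cells reached 5 UMIs. The shares of B cells with at least 1 such UMI were 5.99%, 2.17%, 6.53% and 8.18%, with 95% exact binomial intervals of 5.17 to 6.90, 1.65 to 2.80, 4.31 to 9.43 and 5.67 to 11.4. The B cells were about as deeply sampled as the granule-rich cells, with medians of 6126.5, 5013, 7514.5 and 5837 UMIs against 7516, 4393, 5001 and 6419. In the granule-rich neutrophils, which the rule set at 5 or more, the median sum of the 3 genes was 21, 11, 14 and 22 UMIs per cell, and the highest was 381, 135, 588 and 750. All intervals cover counting error only.

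**Figure D1:**
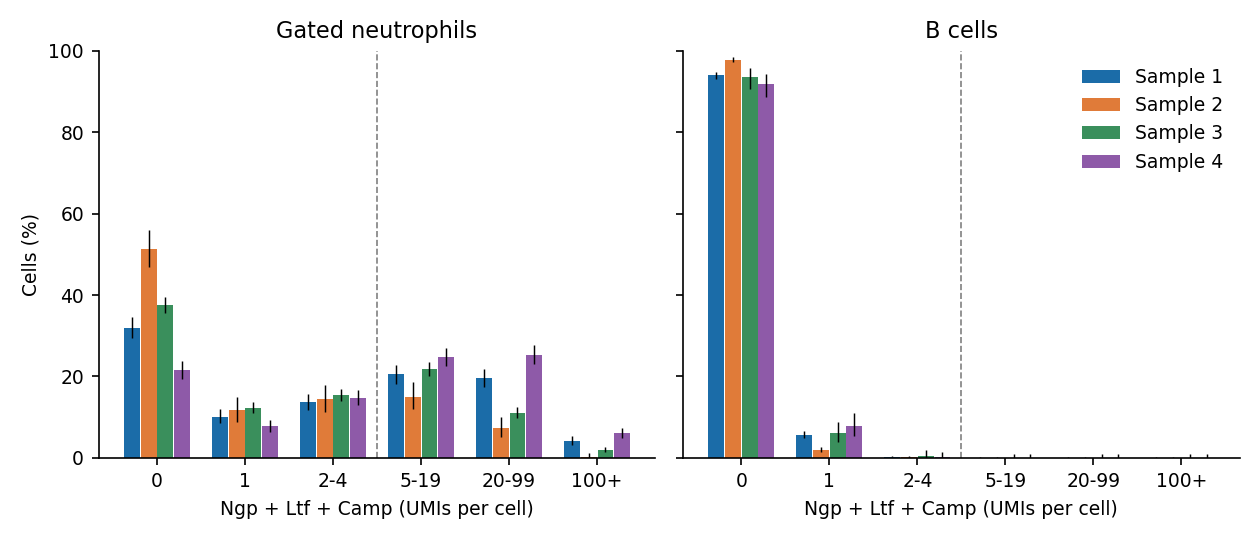
Share of cells (percent, linear axis) by the summed UMIs of Ngp, Ltf and Camp per cell, for gated neutrophils (S100 and lineage rules, and a Csf3r or Cxcr2 UMI where granule UMIs were at most 1) and for B cells, with 1 bar per sample and 95% exact binomial intervals as error bars; the dashed line marks the threshold of 5 UMIs. B cells, gated to S100 genes under 1% of UMIs, sit almost entirely at 0 (91.8% to 97.8%). The neutrophils spread over every class with no gap at the threshold.

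No gap separated the granule-rich cells from the other neutrophils. Over the 4 samples, 251 and 204 cells that met the other rules had 3 and 4 granule UMIs, just below the threshold, and 165 and 146 had 5 and 6, just above it. For the S100 rule, 16 members lay between 1% and 2% of UMIs and 2 granule-positive cells lay under 1%. A further 1694 cells (420, 230, 528 and 516 by sample) met the granule and S100 rules but held a lineage UMI, and in 446 of them it was exactly 1. The gated neutrophils were the granule-rich cells, the cells with 2 to 4 granule UMIs, and the granule-low cells, which had at most 1 granule UMI and at least 1 UMI of Csf3r or Cxcr2. That receptor rule acted on the lowest classes alone and left out 55, 56, 172 and 93 cells of samples 1 to 4. Within the gated neutrophils, cells without any granule UMI made up 32.0%, 51.4%, 37.5% and 21.5%, and cells with 100 or more made up 4.15%, 0.211%, 1.94% and 5.98%. The granule-rich neutrophils are therefore the upper range of a continuous distribution, cut at 5 UMIs.

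The cells were neutrophils by genes that the rule did not name. Csf3r, the receptor for the growth factor G-CSF, or the chemokine receptor Cxcr2 was detected in 98.1%, 89.7%, 92.0% and 93.8% of them, against 12.8%, 8.51%, 16.3% and 11.3% of B cells. Retnlg, a resistin-like protein of neutrophils, was at 13040.2 to 22081 counts per 1000000 UMIs (CPM), against 38.7 to 58.0 CPM in monocytes and 38.1 to 57.9 CPM in B cells. Mmp9 was at 656 to 1299 CPM, against 4.87 to 12.7 CPM in monocytes. The monocytes were gated to have no Csf3r or Cxcr2 UMI, so those receptors are not compared with them. The 6 neutrophil markers (these 4, Ly6g and S100a9) summed to 73282 to 120826 CPM, most of it S100a9, a gene of the rule. Markers of the eosinophil, another granulocyte, summed to between 0 and 4.07 CPM, with the eosinophil peroxidase gene Epx at 0 in every sample. Mitochondrial genes took a median of 0.762% to 1.26% of UMIs. Barcodes shared between 2 samples made up 0.271% to 0.423% of the smaller one, and at most 1 barcode of a granule-rich cell was shared by any pair.

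The share of granule-rich neutrophils differed widely between the 4 samples. Of all kept cells they made up 4.85%, 0.809%, 7.39% and 9.64% in samples 1 to 4, with a median of 6.12%. The counting intervals, 4.46 to 5.27, 0.664 to 0.977, 6.91 to 7.89 and 9.01 to 10.3 (exact binomial), did not overlap for any pair of samples. As a share of the gated neutrophils they were 44.2% (41.4 to 47.1), 22.6% (18.9 to 26.7), 34.8% (32.9 to 36.8) and 56.0% (53.4 to 58.7). Sample 2 was the lowest and sample 4 the highest on both denominators, while samples 1 and 3 changed places. Sample 2 also had the lowest depth of the granule-rich cells (a median of 4393 UMIs), and a threshold in UMIs is met less easily at low depth. Among cells of at least 3000 UMIs, a limit chosen after seeing the data, the share of gated neutrophils was 49.4%, 38.3%, 45.1% and 64.6%, in the same order. With the threshold set instead at 0.5% of a cell's UMIs, the share was 13.9%, 5.50%, 9.70% and 20.8%, again in the same order. In mixed tissue a share falls when other cells are more numerous, and these values do not separate that from fewer neutrophils.

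**Figure D2:**
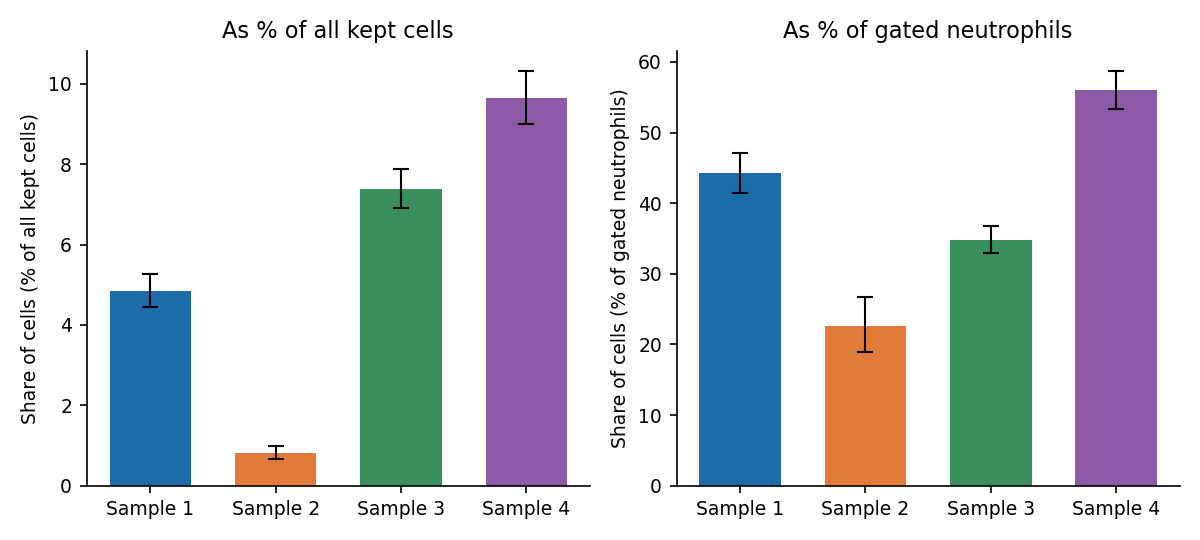
Granule-rich neutrophils as a share (percent, linear axis from 0) of all kept cells and of the gated neutrophils in samples 1 to 4; bars are the shares and error bars the 95% exact binomial intervals. Sample 2 is lowest and sample 4 highest in both panels (0.809% and 9.64% of kept cells).

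To describe what else these cells expressed, they were set beside the granule-low neutrophils of the same sample, which met the same S100 and lineage rules, had at most 1 granule UMI and at least 1 UMI of Csf3r or Cxcr2. There were 507, 298, 1181 and 406 of them, so that the ratio of granule-rich to granule-low cells ran from 0.359 in sample 2 to 1.91 in sample 4. UMIs were summed over the cells of a population and sample, which gave 4603010, 536621, 5568848 and 5892872 UMIs for the granule-rich cells and 2439011, 886591, 4701359 and 1802379 for the granule-low cells. Of 2426 genes with at least 50 CPM in 1 of the 2 populations in every sample, 15 (0.618%) were at least 2-fold higher in the granule-rich cells in each of the 4 samples and 7 (0.289%) at least 2-fold lower, on CPM + 1. Over all genes tested in this way the median log2 ratio was -0.12, and 789 of the 2426 had a median above 0. A gene can enter through the population where it is high: Camp, Ltf, Itgb2l, Adpgk and Padi4 were under 50 CPM in the granule-low cells of every sample, and Aldh2, Stfa3, Abca13 and Ngp in some. Among the lower genes, Clec4n and Gm5150 were under 50 CPM in the granule-rich cells of every sample, and Sirpb1c, Mrps28, Gm41409 and Saa3 in some. The granule-rich cells were the deeper ones, with a median of 7516, 4393, 5001 and 6419 UMIs against 4297, 2682, 3056 and 3598. With the cells thinned to 1000 UMIs, 14 genes were higher (13 shared with the 15) and 10 lower (6 shared with the 7). The cells had been chosen before thinning, at their own depth, so the part of depth in that choice was not tested. The counts depend on the threshold. With granule UMIs set at 0.5% of a cell's UMIs, 32 genes were higher and 62 lower, so that lower genes were then the more numerous, and without sample 3 there were 22 higher and 21 lower.

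The genes of the rule showed the size of the gap it made. Ngp was at 3793, 3202, 3821 and 5159 CPM in granule-rich cells of samples 1 to 4 and at 43.9, 54.1, 56.6 and 53.8 CPM in granule-low cells. Ltf was at 451, 183, 295 and 523 CPM against 3.69, 5.64, 2.77 and 5.55 CPM. Camp was at 458, 257, 312 and 423 CPM against 2.46, 2.26, 2.98 and 0.555 CPM. The 3 genes were not evenly spread over the cells. Ngp was detected in at least 99.8% of granule-rich neutrophils in every sample, but Ltf in only 53.3%, 21.5%, 24.2% and 42.0% and Camp in 58.0%, 39.3%, 27.4% and 37.5%. Membership thus rested mainly on Ngp. Summed over the 3 genes, granule-low cells still held 50.02, 62.0, 62.3 and 59.9 CPM, above the B cells (6.64, 3.08, 6.998 and 9.84 CPM) and the monocytes (4.77 to 8.38 CPM) of the same samples, while the granule-rich cells held 4702, 3641, 4428 and 6104 CPM. The gates limit these levels: monocytes and granule-low cells could hold at most 1 granule UMI each, and B cells had S100 genes under 1% of UMIs.

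A wider list built around the specific granule genes held Lcn2, Cd177, Mmp8, Pglyrp1 and Olfm4 beside genes of other kinds. Of its 17 genes 15 were tested, 5 (Lcn2, Cd177, Ifitm6, Anxa1 and Aldh2) were at least 2-fold higher in every sample (against 0.618% of all genes tested) and none lower; 14 had a median log2 ratio above 0 (789 of 2426 genes did), and the list's median log2 ratio was 1.05 against -0.12 over all genes. The list was drawn up with earlier results of these data known and 3 of its 5 called genes (Ifitm6, Anxa1 and Aldh2) are better known for other roles, so these counts describe the list and are no result about specific granule genes. Summed over the list, the level was 21990, 17715, 14831 and 19376 CPM in granule-rich cells and 10554, 7865, 8595 and 11034 CPM in granule-low cells. The 2 populations did not overlap.

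Lcn2 was at 6992, 6263, 3518 and 5116 CPM in granule-rich cells and at 2868, 2463, 1674 and 2270.3 CPM in granule-low cells, a ratio of 2.44 (95% counting interval 2.38 to 2.502), 2.54 (2.41 to 2.68), 2.10 (2.05 to 2.16) and 2.25 (2.18 to 2.33). The transcript was thus abundant in both populations, and lowest in sample 3 in both. Thinned to 1000 UMIs, 97.7%, 99.1%, 91.9% and 97.2% of granule-rich cells had an Lcn2 UMI, against 71.3%, 67.4%, 69.3% and 77.6% of granule-low cells and 1.80% to 3.07% of B cells. The gap thus held after thinning to equal depth, in cells that had been chosen at their own depth. Cd177, a surface protein that binds the endothelial adhesion molecule PECAM-1, was at 832, 686, 540.3 and 749 CPM against 230.4, 136, 124 and 188 CPM, ratios of 3.61, 5.02, 4.35 and 3.98. Ifitm6, an interferon-inducible membrane protein of myeloid cells, was at 2869, 1858, 1728 and 2452 CPM against 1103, 636, 686 and 756 CPM. Anxa1, a phospholipid-binding protein that restrains neutrophil recruitment, was at 954, 796, 839 and 1079 CPM against 442, 391, 383 and 413 CPM. In each of these genes the lowest granule-rich sample lay above the highest granule-low sample. Aldh2, a mitochondrial aldehyde dehydrogenase, completed the 5, at 281, 164, 119.6 and 181 CPM against 91.4, 63.2, 30.2 and 38.8 CPM, and in samples 3 and 4 it passed the filter only through the granule-rich cells.

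Several members of the list missed the 2-fold mark in a single sample or failed the filter. Mmp8, the neutrophil collagenase, had ratios of 2.27, 3.28, 1.76 and 2.02, and Pglyrp1, a peptidoglycan-binding protein, 2.03, 1.68, 2.11 and 2.36. Serpinb1a, an inhibitor of neutrophil elastase, was at 98.2, 63.4, 49.7 and 96.9 CPM against 23.4, 10.2, 9.36 and 22.7 CPM, and sample 3 fell just under the filter of 50 CPM. Olfm4, a granule protein known to mark only a subset of neutrophils, was detected in 5.82%, 5.61%, 10.9% and 9.65% of granule-rich cells. In the granule-rich cells of sample 1, for example, 296 Olfm4 UMIs stood in those 5.82% of cells. Thinned to 1000 UMIs the Olfm4 shares were 3.01%, 3.74%, 7.17% and 6.45% against 0.810%, 1.72%, 5.52% and 4.34% in granule-low cells and at most 0.251% in B cells. Chil3, a chitinase-like lectin also made by monocytes and macrophages, was the exception on the list. It stood at 191, 145, 1198 and 1238 CPM in granule-rich cells and at 261, 18.05, 1301 and 2229 CPM in granule-low cells, high in samples 3 and 4 in both, while monocytes held 1021 to 8018 CPM and B cells 66.5 to 883 CPM across the samples. The part of free RNA in the Chil3 values was not tested.

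**Figure D3:**
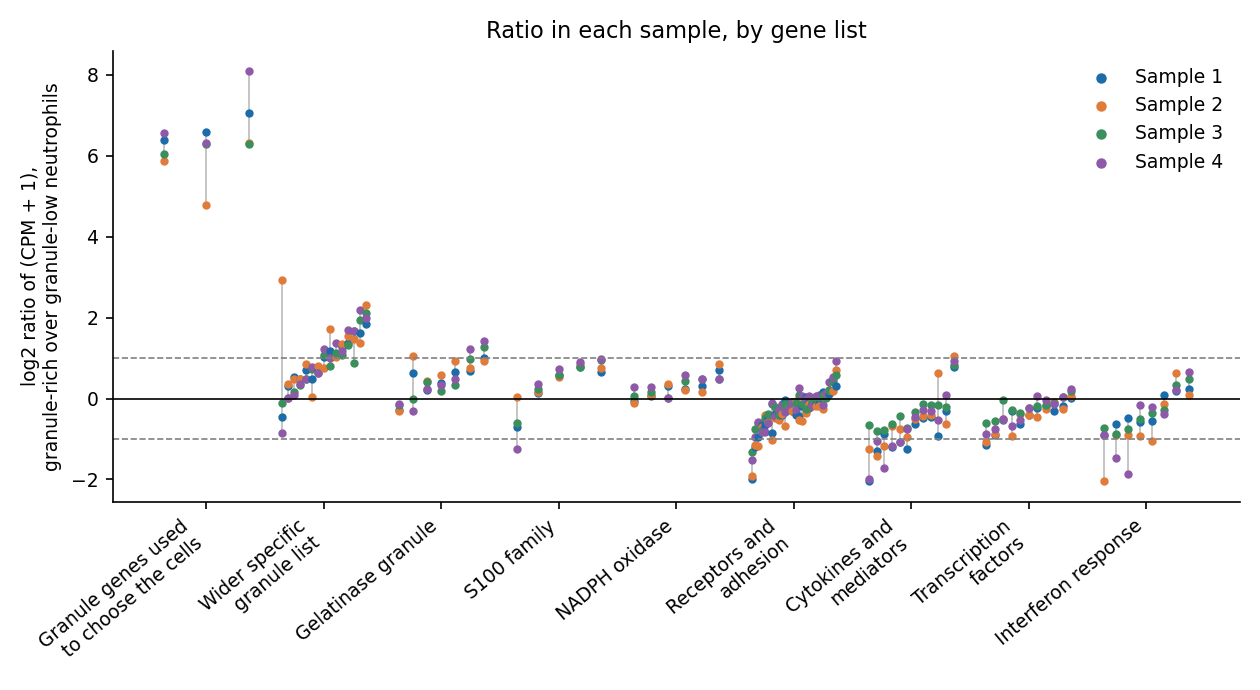
log2 ratio of (CPM + 1) in granule-rich over granule-low neutrophils, 1 point per tested gene and sample, grouped by gene list and ordered within a list by the gene's median; grey lines join a gene's samples and dashed lines mark 2-fold. Beyond the 3 genes of the rule, the wider specific granule list lies mostly above 0 (list median 1.05) and the inflammatory mediators mostly below 0 (list median -0.67).

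Gelatinase granule genes, the last wave, gave no calls. Of 8 genes 7 were tested and none reached 2-fold in every sample (0.618% of all genes did). Of the 7, 6 had a median ratio above 1, against 789 of all 2426 genes. The median log2 ratio was 0.37, against -0.12 over all genes. Summed over the list, the ratio was 1.42, 1.51, 1.32 and 1.38. Mmp9 (gelatinase B) was at 1276, 1299, 656 and 920.4 CPM against 794, 765, 335 and 396 CPM, ratios of 1.61, 1.70, 1.96 and 2.32. Mmp25, a membrane-anchored metalloproteinase, had ratios of 2.02, 1.91, 2.44 and 2.72, while Slc11a1, a metal transporter, had ratios of 0.817, 0.805, 0.900 and 0.906. These 2 protease genes stood higher in granule-rich cells in every sample, and the transporter lower. Of the 6 oxidase genes, which encode the superoxide-producing NADPH oxidase, all were tested and none was called. Over all genes tested, 0.618% were called higher and 0.289% lower. The oxidase list had a median log2 ratio of 0.25, against -0.12 over all genes. The membrane subunit gene Cyba had ratios of 1.64, 1.81, 1.40 and 1.40.

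Most primary granule genes had few UMIs. Over all 2242 granule-rich cells there were 13 UMIs of Mpo (myeloperoxidase), 18 of Prss57 and 1 each of Elane (elastase), Ctsg (cathepsin G), Bpi and Ms4a3, and the 2392 granule-low cells held 9 of Mpo, 4 of Prss57 and 2 of Elane. Prtn3 (proteinase 3) had more, 95 UMIs against 60, or 8.26, 1.86, 4.85 and 4.92 CPM against 7.38, 1.13, 5.74 and 7.77 CPM in granule-low cells, with 2.61 to 7.22 CPM in B cells and 29.5 to 51.9 CPM in monocytes. Its level thus differed little between the neutrophil populations. In sample 1 the granule-rich cells had no UMI of Mpo or Elane, and a count of 0 there allows up to 0.652 CPM (3 counts of the summed UMIs), with 5.59 CPM in the shallow sample 2. Only Cd63, a general granule and lysosome membrane gene with 1453 UMIs, passed the filter on this list. The 8 genes summed to 109, 70.8, 83.7 and 97.7 CPM, which was 1.68, 1.14, 1.04 and 1.07 times the level in granule-low cells, against 33.0 to 67.3 CPM in B cells. Most of each sum was Cd63. Progenitor markers (Cd34, Kit, Elane, Mpo, Prtn3 and Ctsg) summed to 22.4 to 33.8 CPM in granule-rich cells, 23.7 to 47.2 CPM in granule-low cells and 22.0 to 31.6 CPM in B cells, most of it Kit, with Elane, Mpo and Ctsg at 0 in samples 1 and 2. Cebpe, the factor of the specific granule stage, had only 17, 2, 29 and 35 UMIs, or 3.69, 3.73, 5.21 and 5.94 CPM, against 2.05, 0, 0.638 and 2.77 CPM in granule-low cells, and in sample 2 both values lie under the limit that a count of 0 allows.

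Few of the granule-rich cells carried mitotic transcripts. Cells with at least 3 UMIs over 8 mitotic genes were 2 of 533 (0.375%, exact interval 0.0455 to 1.35), 2 of 107 (1.87%, 0.227 to 6.59), 4 of 825 (0.485%, 0.132 to 1.24) and 3 of 777 (0.386%, 0.0797 to 1.12). B cells, a population with cycling members, gave 3.70%, 4.91%, 5.03% and 3.58%, and the interval of sample 2 includes its B cell value. The shallower granule-low cells gave 0 of 507, 0 of 298, 5 of 1181 (0.423%) and 0 of 406, with exact intervals reaching 0.725%, 1.23%, 0.985% and 0.904%. The granule-rich share was thus the higher in every sample, with intervals that overlap. Summed over the 16 proliferation genes, the ratio of granule-rich to granule-low cells was 1.10, 1.48, 1.05 and 1.22. Mki67 was at 5.43, 11.2, 5.93 and 3.05 CPM in granule-rich and 4.10, 9.02, 8.93 and 7.21 CPM in granule-low cells. The label "immature" therefore rests on the specific granule transcripts that chose the cells. Mpo, Elane, Ctsg, Bpi, Ms4a3 and Prss57 had at most 18 UMIs each over all cells, progenitor markers were close to the level of B cells, and the share of mitotic cells was lower than in B cells in each sample, within the interval in sample 2. The cells are named here by their rule alone.

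**Figure D4:**
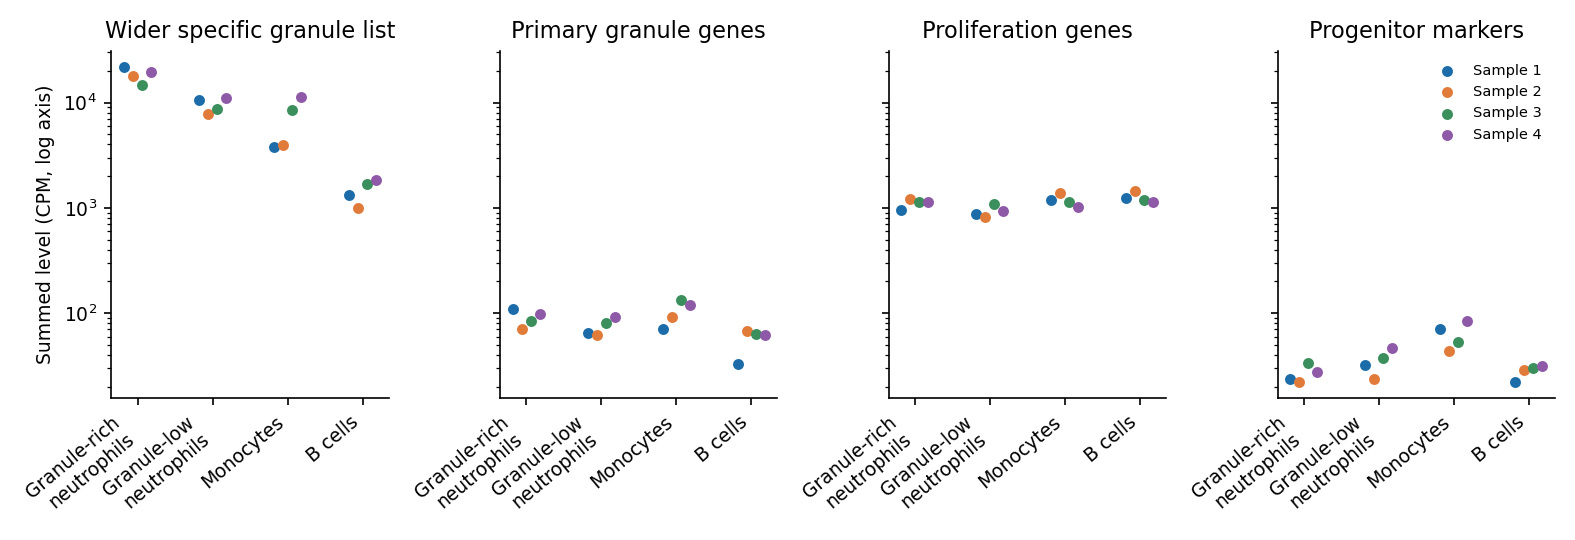
Summed level (CPM, log axis) of the wider specific granule list, primary granule genes, proliferation genes and progenitor markers in granule-rich neutrophils, granule-low neutrophils, monocytes and B cells, with 1 point per sample. Of the 4 lists, only the wider specific granule list stands highest in granule-rich cells in every sample, while the primary granule genes (70.8 to 109 CPM) and the proliferation genes (949 to 1217 CPM) lie close to the other populations.

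Genes outside the granule lists filled the rest of the higher group. Itgb2l, a leukocyte integrin beta chain, was at 62.6, 69.0, 57.5 and 74.8 CPM against 6.97, 12.4, 4.89 and 13.9 CPM, the widest gap after the genes of the rule. Padi4, the enzyme that citrullinates histones when neutrophils release extracellular traps, was at 77.3, 102, 70.8 and 107 CPM against 29.5, 40.6, 19.6 and 28.9 CPM. Adpgk, an ADP-dependent glucokinase, was at 102, 108, 127 and 129 CPM against 29.9, 27.1, 41.5 and 32.2 CPM. These 3 genes were under 50 CPM in the granule-low cells of every sample and passed the filter only through the granule-rich cells. That the populations did not overlap for them was thus set by the filter. Stfa3, a cysteine protease inhibitor from a cluster of near-identical genes whose reads can be split, did overlap: it was at 98.8, 63.4, 62.1 and 737 CPM against 36.1, 7.90, 24.0 and 133 CPM, high in sample 4 in both populations. In the granule-rich cells of sample 2, 22 of its 34 UMIs lay in 1 cell. The call of Stfa3 as higher in every sample depends on that cell. The remaining 3, named after their values were seen, were Abca13, Tkt (transketolase of the pentose phosphate pathway) and Acvrl1 (a receptor of the TGF-beta family), with median log2 ratios of 1.60, 1.27 and 1.16.

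Promoter windows of the called genes were searched in the same way. Of the 15 higher genes 13 were matched to a RefSeq promoter, 4 of them (Anxa1, Lcn2, Ltf and Ngp) held TTGCNNAA and 3 (Abca13, Ifitm6 and Itgb2l) held AGGAAGT. Of the 7 lower genes 4 were matched, with 1 match to each motif. The counts are too few to compare with the 9.56% and 7.69% of all promoters.

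The S100 genes, which encode the calprotectin subunits and their relatives, were mixed. Of 6 genes 5 were tested and none was called, against 0.618% of all genes tested called higher and 0.289% lower. Of the 5, 4 had a median ratio above 1, against 789 of all 2426 genes. The median log2 ratio was 0.59, against -0.12 over all genes. S100a8 and S100a9 took part in the rule, at the same threshold in both populations. S100a8 was at 93789.9, 70061, 60905 and 70122 CPM against 54551, 38936, 35434 and 37331 CPM, and S100a9 at 100777, 71121, 58769 and 62189 CPM against 67089, 49308, 39112 and 37442 CPM. S100a6, which the rule did not use, had ratios of 1.59, 1.68, 1.92 and 1.97. Sample 1 was the highest for both calprotectin genes in each population. Since these transcripts filled a median of 19.97%, 14.3%, 11.95% and 12.6% of the UMIs of a granule-rich cell, a higher S100 share lowers the CPM of all other genes. S100a4, which is monocyte-rich, was at 40.4, 39.1, 114 and 43.1 CPM against 89.0, 32.7, 143 and 186 CPM, with 551 to 1018 CPM in monocytes, and did not pass the filter. S100a10 had ratios of 0.614, 1.02, 0.6504 and 0.419.

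Surface receptors were spread around and slightly below equality. All 26 genes of the list were tested, none was called higher and 1, Ccrl2, was called lower (against 0.289% of all genes), and the median log2 ratio was -0.19. Ccrl2, a chemerin-binding receptor that is induced on activation, was at 81.3, 139.8, 63.7 and 56.3 CPM in granule-rich cells and at 325, 529, 160.0 and 163 CPM in granule-low cells, without overlap between the populations. Csf3r was at 554, 444, 494 and 479 CPM against 1068, 994, 754 and 717 CPM, ratios of 0.518, 0.446, 0.655 and 0.669, but a Csf3r or Cxcr2 UMI was required of granule-low cells, which raises their level. Cxcr2 had ratios of 0.904, 0.876, 1.01 and 1.04 under the same requirement. Cxcr4, which retains neutrophils in the marrow, was at 66.5, 93.2, 127 and 109.6 CPM against 119.7, 191, 140.0 and 119 CPM. The ratios of this marrow retention receptor were 0.555, 0.489, 0.911 and 0.919, near equality in samples 3 and 4.

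Ly6g, the usual surface marker of mouse neutrophils, was at 422, 285, 153 and 206 CPM against 340.3, 175, 102 and 108 CPM, ratios of 1.24, 1.63, 1.499 and 1.91. Thinned to 1000 UMIs, 29.9%, 27.1%, 16.04% and 17.5% of granule-rich cells had a Ly6g UMI against 18.02%, 10.7%, 8.20% and 10.2% of granule-low cells and at most 0.256% of B cells. Ly6c2, a component of the Gr-1 epitope found on monocytes and neutrophils, was at 422, 244, 252 and 341 CPM against 179.6, 149, 107 and 145 CPM, ratios of 2.35, 1.64, 2.35 and 2.34. Both Ly6 genes were higher in the granule-rich cells of every sample. Unthinned, both were detected together in 65.7%, 43.0%, 30.9% and 44.0% of granule-rich cells and in 19.3%, 11.7%, 6.01% and 6.40% of granule-low cells.

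The inflammatory mediators leaned the other way. Of 20 genes 12 were tested and none was called (0.289% of all genes were called lower). The median log2 ratio was -0.67, against -0.12 over all genes, and 1 of the 12 had a median above 0, against 789 of all 2426. Il1b, the cytokine matured by the inflammasome, was at 1311, 1286, 1880.3 and 1443 CPM in granule-rich cells and at 3213, 3439, 3284 and 2966 CPM in granule-low cells, ratios of 0.408 (0.395 to 0.422), 0.374 (0.344 to 0.406), 0.572 (0.558 to 0.587) and 0.486 (0.470 to 0.503). The levels did not overlap, and sample 3 alone kept the gene out of the lower group. Nlrp3, the inflammasome sensor, had ratios of 0.420, 0.515, 0.601 and 0.594. Ptgs2, which makes prostaglandins, had ratios of 0.241, 0.421, 0.640 and 0.251, and Ccl4, a chemokine for monocytes and T cells, 0.543, 0.442, 0.579 and 0.306. For all 3 the granule-rich level was the lower in every sample. Thinned to 1000 UMIs, Ptgs2 was detected in 5.83% of granule-rich cells of sample 1, below the 7.79% of its B cells, so that its level there cannot be told from background. Cxcl2, a neutrophil chemoattractant, was at 5052, 9372, 6593 and 5869 CPM against 7861, 13244, 8354 and 8097 CPM, lower in the granule-rich cells of every sample. Retnlg was the mediator above equality, at 17588, 22081, 13040.2 and 14891 CPM against 10242, 10685, 7355 and 7792 CPM, and because of it the list's summed level was nearly equal in the 2 populations, at ratios of 1.01, 1.08, 1.04 and 1.02.

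The other genes of the lower group were few. Clec4n (Dectin-2, a receptor for fungal mannans) was at 35.4, 16.8, 45.4 and 25.1 CPM against 146, 185, 99.5 and 72.1 CPM, and monocytes held 89.0 to 133 CPM. Saa3, an acute-phase protein, was at 66.5, 18.6, 973 and 598 CPM against 356, 63.2, 2029.8 and 3969 CPM. Saa3 was high in samples 3 and 4 in every population, with 726 to 5823 CPM in monocytes and 138 to 1368 CPM in B cells. Thinned to 1000 UMIs, Saa3 was detected in 4.70%, 0%, 20.4% and 19.1% of granule-rich cells of samples 1 to 4. B cells gave 6.49%, 3.83%, 20.9% and 14.6%. In samples 1, 2 and 3 the granule-rich share was below that of B cells, so that the Saa3 level there cannot be told from background. Sirpb1c, from a family of near-identical receptors, and Mrps28, a mitochondrial ribosomal protein, had median log2 ratios of -1.19 and -1.44. The remaining 2 were predicted gene models.

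Transcription factors, interferon-stimulated genes and survival genes were, like the receptors, mostly somewhat lower. Of 18 factors 11 were tested and none was called (median log2 ratio -0.32). Over all genes tested, 0.618% were called higher and 0.289% lower. Cebpb, the C/EBP factor of emergency granulopoiesis, was at 1961, 1923, 1938 and 2052 CPM against 2585, 2558, 2260.4 and 2418 CPM, and Nfkbia, an inhibitor and target of NF-kappa-B, had ratios of 0.643, 0.767, 0.787 and 0.689. Of 12 interferon-stimulated genes 8 were tested with none called (median -0.50). Of 10 survival and death genes 5 were tested with none called (median -0.29), and the anti-apoptotic gene Mcl1 had ratios of 0.786, 0.796, 0.864 and 0.775. Of 82 ribosomal protein genes 76 were tested and none was called (median -0.16). Medians above 0 were held by 1 factor, 2 interferon-stimulated, 0 survival and 4 ribosomal protein genes, against 789 of all 2426 genes tested. All of these lists thus had a median below that over all genes tested, -0.12. That none of their genes was called is near the shares over all genes, and is no result about these lists.

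Glycolysis and hypoxia genes stood slightly above equality. Of 12 genes 8 were tested, 7 with a median above 0 (789 of all 2426 genes), none called (0.618% of all genes were called higher) and a median log2 ratio of 0.11, against -0.12 over all genes. Ldha, which turns pyruvate into lactate, was at 294, 257, 253 and 367 CPM against 164, 135, 155 and 193 CPM, ratios of 1.79, 1.90, 1.63 and 1.90, whereas the glucose transporter gene Slc2a1 had ratios of 0.960, 1.12, 0.796 and 1.09. Eno1, the glycolytic enolase, had ratios of 1.55, 1.63, 1.22 and 1.38, between these 2.

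Genes of the AhR pathway and of polyamine synthesis, the subject of the series, were low in these cells. Of 14 genes 4 were tested and none was called, against 0.618% of all genes tested called higher and 0.289% lower. The median log2 ratio was -0.30, against -0.12 over all genes. Ahr itself had 53, 20, 148 and 80 UMIs in the granule-rich cells, or 11.5, 37.3, 26.6 and 13.6 CPM, against 35.7, 31.6, 55.5 and 36.1 CPM in granule-low cells and 125 to 222 CPM in monocytes. Transcript level of a gene carrying a deletion need not report the allele, and no genotype was read from it. Cyp1a1, the classical AhR target, had no UMI in either neutrophil population. Odc1, the rate-limiting enzyme of polyamine synthesis, was at 61.3, 168, 35.2 and 26.0 CPM against 67.7, 138, 35.9 and 39.4 CPM, highest in sample 2 in both populations. Tiparp, another AhR target, had ratios of 0.671, 0.773, 0.862 and 0.716.

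Within the granule-rich neutrophils, cells with more granule transcripts also differed in other genes. The cells were split at 20 and 100 granule UMIs, which gave 247, 236 and 50 cells in sample 1, 71, 35 and 1 in sample 2, 516, 263 and 46 in sample 3 and 343, 351 and 83 in sample 4. The single cell in the top class of sample 2 was left out, so that sample has 2 classes. Depth went up with the class, with a median of 6759, 7798 and 10833.5 UMIs in sample 1 and 5209, 7035 and 9591 in sample 4, and its part in these differences was not tested. Of 330 genes read, 18 besides the genes of the rule were higher in each successive class in all 4 samples, and 25 were lower in each. The 330 were the listed genes and those named by rule, some of them for their ratio to granule-low cells. The share over all genes was not taken, so these counts only describe the genes read.

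Lcn2 was at 6005, 7232 and 9086 CPM across the classes of sample 1, 5792 and 7073 in sample 2, 2837, 3955 and 5841 in sample 3 and 3842, 5055 and 8043 in sample 4. Cd177 went from 676 to 1014 CPM between the lowest and the highest class of sample 1, from 613 to 799 in sample 2, from 420.5 to 878 in sample 3 and from 534 to 1114 in sample 4. Both granule genes thus climbed with the class in every sample. Cybb, the catalytic oxidase subunit, which differed little between granule-rich and granule-low cells (ratios of 1.24, 1.30, 1.01 and 1.003), stood at 164, 227 and 419 CPM in sample 1, 152 and 159 in sample 2, 175, 182 and 597 in sample 3 and 157, 168 and 541 in sample 4. Most of its gain therefore lay in the top class. The classes were cut on Ngp, Ltf and Camp, whose own rise is therefore not reported. Chil3, whose ratio of granule-rich to granule-low cells went both ways (0.734, 8.05, 0.921 and 0.555), was at 89.9, 225 and 376 CPM in sample 1 and at 871, 1164 and 3266 CPM in sample 3. Aldh2, Anxa1, Itgb2l, Padi4, Ly6c2, Mmp9, Ncf1 and Ldha were among the other genes of this order.

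Among the genes in the opposite order were Csf3r and Il1b. Csf3r was at 661, 534 and 306 CPM in sample 1, 534 and 286 in sample 2, 558, 444 and 307 in sample 3 and 606, 463 and 261 in sample 4. Il1b was at 1542, 1230 and 908 CPM in sample 1, 1509 and 915 in sample 2, 2191, 1553 and 1317 in sample 3 and 1909, 1352.5 and 740.4 in sample 4. Cxcl2, Ccl4, Nlrp3, Nfkbia, Cebpb, Fpr1, Fpr2 and Cflar followed the same descending order. Of the 11 mediators with a median below 0 against granule-low cells, 5 (Il1b, Il1a, Cxcl2, Ccl4 and Nlrp3) were in this order in all 4 samples. Ptgs2 was not, at 63.0, 58.3 and 125 CPM in sample 1. The classes and the populations rest on the same 3 genes.

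**Figure D5:**
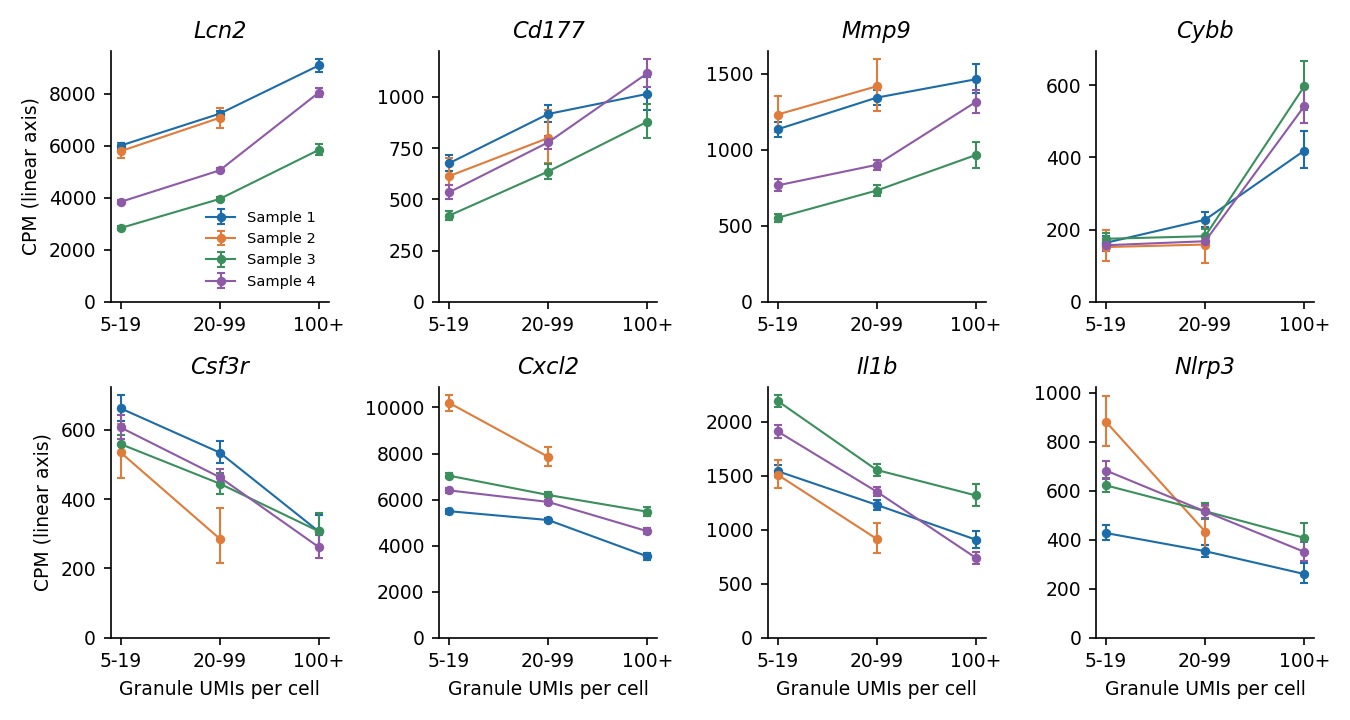
Level (CPM, linear axis from 0) of 8 genes in granule-rich neutrophils with 5 to 19, 20 to 99 and 100 or more granule UMIs, 1 line per sample; bars are 95% exact Poisson intervals and sample 2 has no point in the top class, which held 1 cell. Lcn2, Cd177, Mmp9 and Cybb climb with the class (Lcn2 from 6005 to 9086 CPM in sample 1), whereas Csf3r, Cxcl2, Il1b and Nlrp3 descend in every sample.

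The granule-rich cells of the 4 samples differed from each other in Isg15 and Gbp2, both on the interferon-stimulated list, and in Cxcl10, which is not on it. Isg15, a ubiquitin-like protein, was at 231, 74.5, 46.5 and 25.5 CPM in samples 1 to 4, and Gbp2, a guanylate-binding GTPase, at 579, 50.3, 114 and 63.0 CPM. Cxcl10, a chemokine for activated T cells, was at 678, 65.2, 33.2 and 6.28 CPM, and in sample 1 its UMIs came from 251 of 533 cells, the richest of which held 3.88% of them. Sample 1 was the highest for all 3 genes. The same sample was the highest in the granule-low cells, at 359, 139.9, 86.1 and 72.1 CPM for Isg15, 1079.5, 211, 189 and 118 CPM for Gbp2 and 536, 32.7, 38.5 and 54.9 CPM for Cxcl10. Monocytes too were highest in sample 1 for Gbp2 and Cxcl10, with thinned shares of 40.7% and 14.2% in sample 1 and at most 20% and 7.11% in the other samples. Thinned, Cxcl10 was found in 26.7% of granule-rich cells of sample 1, against 2.56% of its B cells, but in samples 2 to 4 its shares (0.935%, 1.46% and 0.387%) were below those of B cells (1.17%, 1.76% and 2.30%), so there it cannot be told from background. The interferon-stimulated list did not move as one, since Slfn4 was found in 45.7%, 38.3%, 40.6% and 49.2% of granule-rich cells after thinning, the highest in sample 4. Stfa3 in sample 4 was spread over 330 of 777 cells, or 25.9% after thinning, against 0.256% of B cells. In sample 2, by contrast, 22 of its 34 UMIs lay in 1 cell.

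Markers of other cells were low in the granule-rich neutrophils, with an exception by sample. Monocyte markers summed to 468 to 906 CPM, with Ly6c2 the most abundant, against 4578 to 6381 CPM in monocytes. Macrophage markers summed to 119.8 to 237 CPM, T cell markers to 15.0 to 44.0 CPM, B and plasma cell markers to 138 to 322 CPM, dendritic cell markers to 8.26 to 35.0 CPM and erythroid markers to at most 0.539 CPM. Each of these sums lay well below that in the population it marks, where such a population was gated. Markers of NK cells and innate lymphoid cells reached 18.5 CPM, of basophils and mast cells 2.72 CPM, of fibroblasts 63.9 CPM and of endothelium 39.4 CPM. Epithelial markers, of which Krt8 or Epcam was the most abundant, summed to 81.9, 74.5, 6.82 and 312 CPM, high in sample 4 and low in sample 3. Granule-low cells gave 11.1, 38.3, 13.6 and 296 CPM and monocytes 6.57, 209, 368 and 18.5 CPM, so the order of the samples was not the same in each population.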

How the data were processed

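Single-cell RNA-seq was performed on 4 pooled colon samples. The authors deposited whole-number UMI counts per gene and cell for 32285 mouse genes; the submitters' notes name Cell Ranger 5.0.0, STAR, Seurat and mm10, while the file headers name Cell Ranger 7.0.1. Every step after the deposited counts was computed here. Of the gene identifiers, 32158 were matched to GENCODE M21 for positions, and promoter windows came from RefSeq (GRCm38.p6). Reads of near-identical genes could not be told apart.

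UMIs were summed per population and sample and scaled to counts per 1000000 UMIs (CPM). Exact Poisson intervals were used for levels, exact binomial intervals for shares and conditional binomial intervals for ratios (95%), which cover counting error only. The labels place no sample in a group, so no test or p-value was computed; a gene was called when (CPM + 1) differed at least 2-fold in each of 4 samples, with 50 CPM in a population. Monocytes were kept cells with Ly6c2 and Ccr2 UMIs, no Csf3r, Cxcr2, Cd3 or Cd79a UMI and at most 1 granule UMI, and B cells had at least 2 Cd79a UMIs and S100 genes under 1%. Cells under 1000 UMIs were left out of the thinned shares: 1, 0, 2 and 2 granule-rich and 13, 7, 22 and 14 granule-low cells. No doublet caller was run; the rule on lineage genes kept out cells with T cell, B cell or macrophage transcripts, and the 5% of cells with the most UMIs were left out as an alternative.

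The members, gene lists and alternatives were chosen with earlier results of these data known. Genes could be named from the lists, or as the 10 most abundant, the 10 with the highest and 10 with the lowest ratios among those called, or the 5 with the widest range over samples. The script was tested on simulated data. Python 3.11.15, numpy 2.4.6, scipy 1.17.1, pandas 2.3.3 and matplotlib 3.10.9 were used.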

Additional observations from a re-analysis of the deposited data

How the results depend on the processing

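The share of granule-rich neutrophils followed the threshold. Its median over samples, 6.12% of kept cells and 39.5% of gated neutrophils, became 7.43% and 47.6% with at least 3 granule UMIs, 4.35% and 28.7% with 10, and 1.79% and 11.8% with granule UMIs at 0.5% of a cell's UMIs. It became 7.33% of kept cells with at most 1 lineage UMI and 4.38% with 6 further lineage genes at 0. It became 45.1% of gated neutrophils with S100 genes at 5% of UMIs. Among cells of at least 3000 UMIs, an alternative chosen after seeing the data, it became 6.63% and 47.2%. The 15 higher genes became 32 (14 shared) under the 0.5% rule and 11 to 22 under all others, 17 to 22 with 1 sample left out. The 7 lower genes were less settled: 3 with 3 granule UMIs, 62 (6 shared) under the 0.5% rule, 4 with S100 genes at 5%, 4 with at most 1 lineage UMI, 18 with 6 further lineage genes, 15 with the mean of each cell's CPM, 15 with a filter of 10 CPM, 20 with no filter, 4 with at least 3000 UMIs, and 7 to 21 with 1 sample left out, the 21 being without sample 3. Of 2652 recomputed ratios of 204 genes, 1416 stayed within their counting interval, 1236 moved out of it and 0 called ratios changed direction. Ratios were taken within each sample. No paired analysis was possible because no result comes from a test, the populations having been chosen on values of the same cells, and the labels give no groups. Depth limits sample 2 most, with 107 granule-rich cells, and no cause of these shifts was tested.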

Other observations

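A handful of genes reached high levels in the granule-rich neutrophils of a sample through single cells. Ccl17, a chemokine typical of dendritic cells, had 106 UMIs in sample 2 and all of them lay in 1 cell, while each other sample held 1 UMI. Reg3b, an antibacterial lectin of the epithelium, had 2031 UMIs in sample 1, of which 2029 lay in 1 cell, and 705 in sample 4, of which 387 lay in 1 cell. Ctla2a had 403 UMIs in sample 1, with 372 in 1 cell, and Car1, a carbonic anhydrase of colonocytes, had 759 in sample 4, with 449 in 1 cell. Among the genes with the widest range over samples, Cxcl10 differed in this respect, since its UMIs in sample 1 were spread over 251 cells.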
